A study of Homo sapiens with 6 samples.

Results

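The genes described here were the 4 Notch receptors (NOTCH1, NOTCH2, NOTCH3 and NOTCH4), the 5 canonical ligands (JAG1, JAG2, DLL1, DLL3 and DLL4) and MIB1, the ubiquitin ligase that acts on those ligands. They were taken by gene symbol, and each of the 10 matched 1 row among the 62703 genes of the count table. RNA was measured in HGC-27, a human cell line from a gastric carcinoma. The cells were kept in RPMI 1640 and 10% fetal bovine serum. One group of 3 libraries, shGXYLT2, came from a stably transfected line that carries a short hairpin RNA against GXYLT2. The other 3 libraries, shControl, came from HGC-27 carrying the control hairpin, with a genotype given as WT. GXYLT2 encodes a xylosyltransferase whose substrate is O-glucose on epidermal growth factor (EGF) repeats, the modules that make up most of the outer part of Notch receptors. Whether either line was 1 clone or a pool of cells, and whether the 3 libraries of a group were separate cultures, is not stated in the labels. The p-values therefore measure only the spread between these libraries, which may be technical. Loss of GXYLT2, other effects of the hairpin and differences between the lines cannot be told apart in this design. The hairpin sequence is not given in the sources used here.

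In Notch signalling, a ligand on the surface of 1 cell binds a receptor on its neighbour. MIB1 ubiquitinates the ligand, and its endocytosis pulls on the receptor, which is then cut by ADAM proteases and by gamma-secretase. The freed intracellular domain enters the nucleus and acts with RBPJ and Mastermind proteins on genes such as the HES and HEY families. The study set out to learn what loss of GXYLT2 changes in malignant traits of these cells.

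The libraries held 24898425, 24674750 and 22188073 counts in shGXYLT2, against 17512826, 17291138 and 22540099 counts in shControl, so the shGXYLT2 libraries were on the whole the deeper ones. By chi-square per degree of freedom on counts, the 3 shControl libraries lay closer to each other (1.95 to 3.97) than the 3 shGXYLT2 libraries did (5.86 to 10.95). Correlations of log2 CPM showed no such difference, with 0.9904 to 0.9917 within shControl and 0.9901 to 0.992 within shGXYLT2. The targeted gene GXYLT2 was at 5.27, 6.27 and 5.34 CPM (counts scaled by the TMM-adjusted library total of tested genes) in shGXYLT2, against 20.7, 22.8 and 20.2 CPM in shControl. The groups did not overlap, and GXYLT2 fell with a log2 fold change of -1.91 ± 0.11 (SE; adjusted p = 6.3e-10, edgeR quasi-likelihood test with Benjamini-Hochberg adjustment). GXYLT1, the other xylosyltransferase of this step, averaged 35.4 ± 4.39 CPM in shGXYLT2 and 73.3 ± 3.35 CPM in shControl (SD, n = 3 each). GXYLT1 also fell, by 1.05 on the log2 scale (edgeR adjusted p = 3.7e-08). Markers of the labelled gastric cancer cell type were low or absent. CDH1 averaged 2.33 CPM in shGXYLT2 and 2.92 CPM in shControl, and KRT8 averaged 1.78 CPM in shGXYLT2 and 1.57 CPM in shControl. KRT7 stayed at or under 0.404 CPM. EPCAM, KRT18 and KRT19 stayed at or under 0.234 CPM, and MUC5AC, TFF1, TFF2, GKN1 and GKN2 were at 0 in all 6 libraries. The 6 epithelial markers summed to 4.18 to 4.88 CPM in shGXYLT2 and 4.37 to 5.45 CPM in shControl, and the 5 leukocyte markers used to 0.180 to 0.285 CPM in shGXYLT2 and 0.176 to 0.762 CPM in shControl, with CD3E and CD79A at 0. The mesenchymal filament gene VIM averaged 2526 CPM in shGXYLT2 and 2669 CPM in shControl. The 6 mesenchymal markers summed to 3099 to 3382 CPM in shGXYLT2 and 3602 to 3834 CPM in shControl, with COL1A2 risen and COL1A1, THY1 and ACTA2 fallen (ACTA2 not without shControl replicate 2, edgeR adjusted p = 0.0575). VIM made up most of these sums, while PDGFRB, also among the 6, averaged 0.674 CPM in shGXYLT2 and 1.28 CPM in shControl. The 7 gastric markers summed to 3.37 to 5.62 CPM in shGXYLT2 and 1.99 to 2.46 CPM in shControl. MUC6 made up most of these sums, averaging 4.22 CPM in shGXYLT2 and 2.05 CPM in shControl, and it rose. The part of these shifts in the results on Notch genes was not tested. In RNA from bulk cells, fewer cells of a kind and less RNA per cell cannot be told apart.

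The consensus for the O-glucose that GXYLT2 extends is, within an EGF repeat, cysteine, any residue, serine, any residue, proline or alanine, cysteine. Stretches with these residues were searched in frame over whole GENCODE 29 coding sequences, without a check that they lie in an EGF repeat. NOTCH2 held 18 such stretches, NOTCH1 held 17, NOTCH3 held 16 and NOTCH4 held 11. Among the ligands, JAG1 and JAG2 held 4 each, DLL4 held 3, DLL1 held 2 and DLL3 held 0, and MIB1, an intracellular enzyme, held 0. Of 19448 protein-coding genes, 152 (0.782%) held at least 1, and 5 genes held 10 or more, which were the 4 receptors and CRB1, a polarity protein with many EGF repeats. The first stretch of each receptor and ligand is shown because it is the sequence that ties these genes to the targeted enzyme. The codon of the serine is in capitals, and each is written on its own strand of GRCh38. A match is a description of the letters and not of a modified protein.
NOTCH1, chr9:136523916-136523933, minus strand: tgcctcAGCaccccctgc
NOTCH2, chr1:119997289-119997306, minus strand: tgcctgTCTcatccctgt
NOTCH3, chr19:15192456-15192473, minus strand: tgtcacTCAggcccctgt
NOTCH4, chr6:32220241-32220258, minus strand: tgtctgAGCcagccgtgc
JAG1, chr20:10651666-10651683, minus strand: tgcctcTCTgatccctgt
JAG2, chr14:105151711-105151728, minus strand: tgcaccTCCaacccgtgt
DLL1, chr6:170284926-170284943, minus strand: tgcagcTCTtcaccctgt
DLL4, chr15:40934679-40934696, plus strand: tgtgacAGCaacccctgt

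Among the 10 genes, NOTCH2 rose and MIB1 fell in shGXYLT2 relative to shControl. NOTCH1, NOTCH3, JAG1, JAG2 and DLL1 did not pass an adjusted p of 0.05, and NOTCH4, DLL3 and DLL4 had too few counts to be tested. Of the 7 tested genes, 2 were therefore called, while 12.2% of all 15693 tested genes were called. The single riser stood against 5.31% of tested genes that rose and the single faller against 6.84% that fell. The shGXYLT2 and shControl libraries did not overlap for 3 of the 7, NOTCH2, JAG1 and MIB1, and for 30.4% of all tested genes. The median log2 fold change was 0.02 over the 7 genes and -0.0057 over all tested genes. The 3 untested genes are absent from these counts, and with 7 genes nothing particular to the set is read from them.

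**Figure D1:**
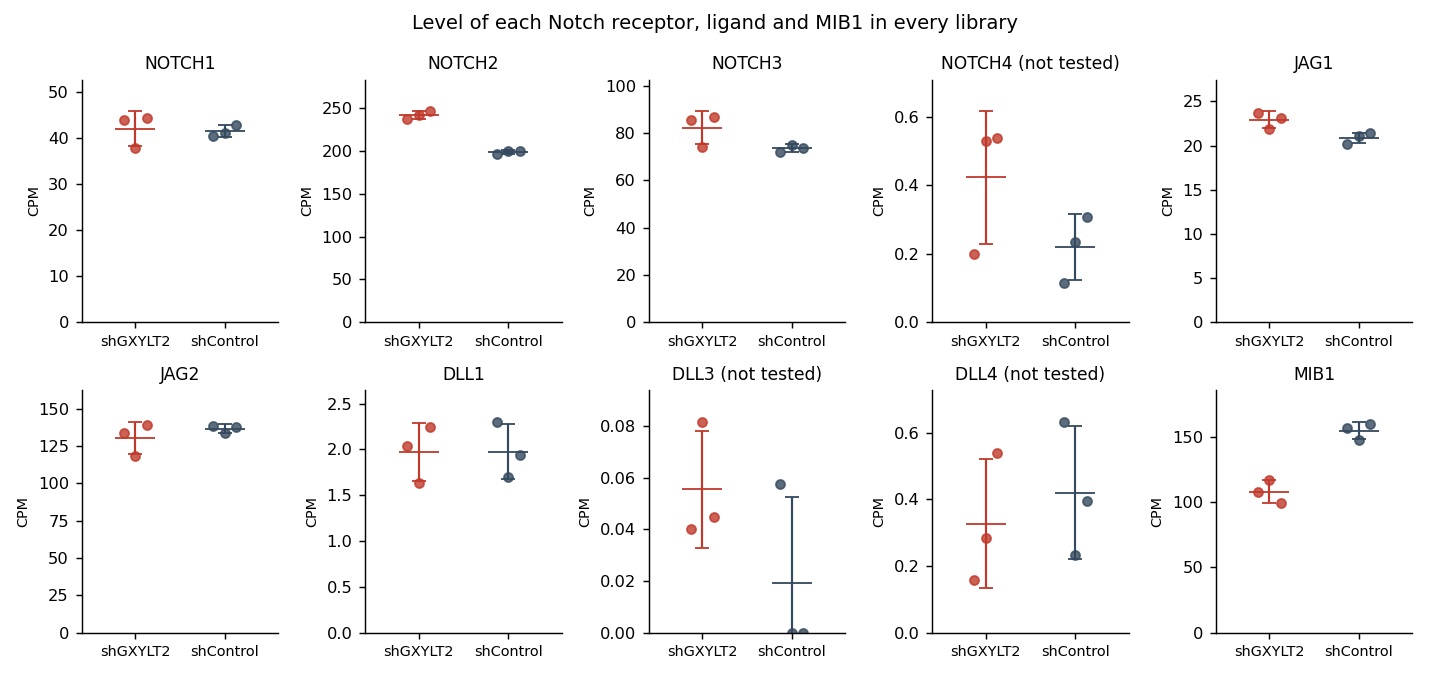
Level of each of the 10 genes in CPM (linear axis from 0, a scale of its own in each panel). Points are libraries, shGXYLT2 left and shControl right, and bars are the mean ± SD of 3 libraries. NOTCH2 lies higher in all 3 shGXYLT2 libraries and MIB1 lies lower in all 3.

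Levels were compared between genes as CPM per kilobase of the deposited gene length. JAG2, a Jagged ligand, stood highest with 22.6 ± 1.86 CPM per kilobase in shGXYLT2 and 23.7 ± 0.471 in shControl (SD, n = 3 each). NOTCH2 followed with 21.2 ± 0.386 in shGXYLT2 and 17.4 ± 0.183 in shControl, and MIB1 with 10.7 ± 0.877 in shGXYLT2 and 15.3 ± 0.645 in shControl. The order then ran NOTCH3, NOTCH1, JAG1, DLL1, DLL4, NOTCH4 and DLL3 in both groups. Neighbours whose libraries overlapped within shGXYLT2 were JAG2 and NOTCH2, MIB1 and NOTCH3, NOTCH1 and JAG1, DLL4 and NOTCH4, and NOTCH4 and DLL3. Within shControl the only overlapping neighbours were NOTCH4 and DLL3. HGC-27 RNA thus held mainly 3 receptors and the Jagged ligands, with DLL1 at 0.521 CPM per kilobase in shGXYLT2 and 0.523 in shControl and the others below it.

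**Figure D2:**
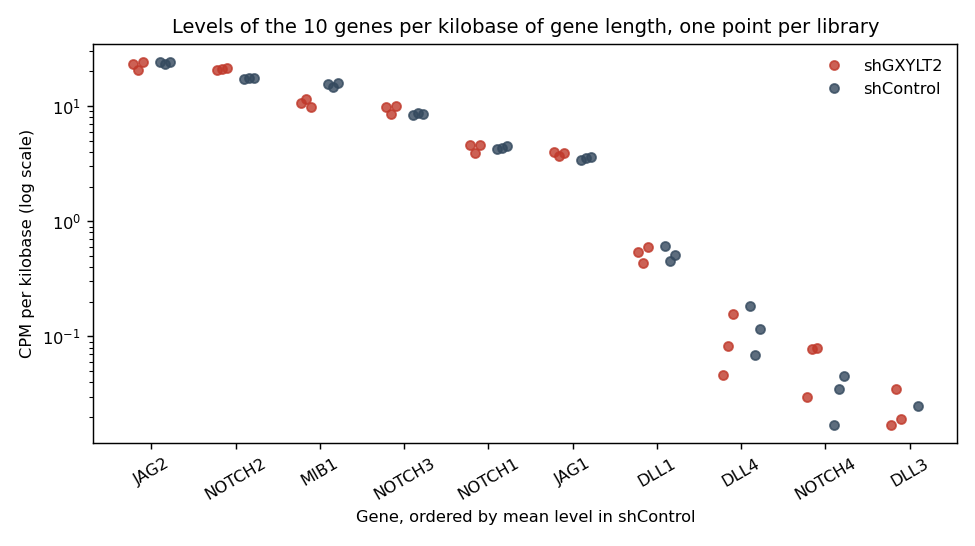
CPM per kilobase of gene length on a log axis, 1 point per library, with shGXYLT2 left of shControl for each gene and genes ordered by their mean in shControl. JAG2 stands highest and DLL3 lowest, and 2 shControl libraries in which DLL3 is at 0 cannot be drawn on this axis.

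NOTCH2 made up the largest share of the receptor RNA. It was 59.0%, 62.8% and 59.4% of the summed CPM per kilobase of the 4 receptors in shGXYLT2, against 57.8%, 57.4% and 57.4% in shControl. All 3 shGXYLT2 libraries lay above the 3 shControl libraries. The receptor sum itself was 35.1 ± 1.28 CPM per kilobase in shGXYLT2 and 30.3 ± 0.448 in shControl. JAG2 was 83.4 ± 0.434% of the ligand sum in shGXYLT2 and 85.04 ± 0.0537% in shControl, and the ligand sum was 27.1 ± 2.09 CPM per kilobase in shGXYLT2 and 27.9 ± 0.564 in shControl. No test was run on these shares or sums.

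NOTCH2 (ENSG00000134250, chr1:119911553-120069626, minus strand, GRCh38) encodes the receptor best known from marginal zone B cells, kidney and liver bile duct development. It was at 238, 242 and 246 CPM in the shGXYLT2 libraries, against 197, 200 and 201 CPM in the shControl libraries. The groups did not overlap, and the lowest shGXYLT2 library lay above the highest shControl library. The means were 242 ± 4.41 CPM in shGXYLT2 and 199 ± 2.09 CPM in shControl (SD, n = 3 each). NOTCH2 rose 1.22-fold, a log2 fold change of 0.28 ± 0.054 (SE; 95% interval 0.17 to 0.40; edgeR adjusted p = 0.0017). Of all tested genes, 11.6% had a higher log2 fold change. It passed under all 16 alternative settings tried, with log2 fold changes between 0.23 and 0.32.

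Part of NOTCH2 exists in near-identical partial copies on chromosome 1, the NOTCH2NL genes, which are human genes studied in the growth of cortical progenitors. Of the 50-base words in the NOTCH2 transcript, 527 of 11340 (4.65%) were also found in transcripts of other genes, NOTCH2NLA, NBPF19 and NBPF14 among them. The copies NOTCH2NLB, NOTCH2NLC and NOTCH2NLR had no GC content from GENCODE transcripts, so they were probably outside this search. The share of words that NOTCH2 has in common with its copies could therefore be higher. The coding sequences of NOTCH2 and NOTCH2NLA align over 634 bases, with 628 of them identical (99.1%). A window of 120 bases from that stretch is shown to make plain how little separates the reads of these genes. Among in-frame windows without gaps inside an exon of both genes, it was chosen for holding the most differences. Capitals mark the 2 bases that differ, and both are written on the minus strand of GRCh38.
NOTCH2, chr1:120005402-120005521: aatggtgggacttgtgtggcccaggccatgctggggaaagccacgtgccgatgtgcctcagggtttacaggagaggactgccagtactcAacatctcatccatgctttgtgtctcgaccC
NOTCH2NLA, chr1:146164824-146164943: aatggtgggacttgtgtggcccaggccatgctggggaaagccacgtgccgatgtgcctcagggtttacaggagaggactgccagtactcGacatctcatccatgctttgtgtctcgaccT

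The counts of NOTCH2 and of its 4 tested copies were not whole numbers in any of the 6 libraries, so the deposited counting could split reads between them. NOTCH2NLA was at 24.1, 23.5 and 25.9 CPM in shGXYLT2, against 23.3, 22.8 and 25.7 CPM in shControl. Its groups overlapped, and it did not pass (log2 fold change 0.03, 95% interval -0.15 to 0.20; edgeR adjusted p = 0.878). NOTCH2NLB (log2 fold change 0.03, 95% interval -0.32 to 0.38; edgeR adjusted p = 0.94) and NOTCH2NLR (0.24, -0.34 to 0.82; edgeR adjusted p = 0.649) did not pass either. NOTCH2NLC averaged 8.23 ± 1.28 CPM in shGXYLT2 and 10.6 ± 1.75 CPM in shControl, with a log2 fold change of -0.37 (edgeR adjusted p = 0.0922). Of the 4 tested copies, 0 passed with edgeR or with DESeq2, and 1, NOTCH2NLC, had an unadjusted p under 0.05. NOTCH2NLC passed without shGXYLT2 replicate 2 (log2 fold change -0.51; edgeR adjusted p = 0.0364). The pseudogene NOTCH2P1 was at 0 in every library.

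The copies together held 13.9%, 15.0% and 14.0% of the counts given to NOTCH2 and its copies in shGXYLT2, against 17.3%, 16.2% and 18.5% in shControl. This share was lower in all 3 shGXYLT2 libraries. When the counts of NOTCH2 and its copies were added into 1 gene, an alternative chosen after seeing the data, the log2 fold change was 0.23 (edgeR adjusted p = 0.0082). NOTCH2 thus passed both as deposited and as that sum. NBPF19 and NBPF14, which share words with NOTCH2, were not part of the sum.

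Around its start, too, NOTCH2 is nearly the same as NOTCH2NLA. In RefSeq promoters of GRCh38.p14, a stretch of 285 bases aligns with 284 identical (99.6%), and the base that differs is in capitals. It is printed because NOTCH2 rose while NOTCH2NLA, with almost the same letters there, did not pass, although the difference between these 2 results was tested only as a ratio, given with the other ratios.
NOTCH2, chr1:120069613-120069897, minus strand: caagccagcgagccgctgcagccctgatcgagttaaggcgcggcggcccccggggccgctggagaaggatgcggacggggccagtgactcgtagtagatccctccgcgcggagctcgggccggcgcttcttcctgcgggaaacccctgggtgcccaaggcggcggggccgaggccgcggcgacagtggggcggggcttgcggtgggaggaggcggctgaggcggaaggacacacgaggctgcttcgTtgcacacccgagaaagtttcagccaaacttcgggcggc
NOTCH2NLA, chr1:146228987-146229271, minus strand: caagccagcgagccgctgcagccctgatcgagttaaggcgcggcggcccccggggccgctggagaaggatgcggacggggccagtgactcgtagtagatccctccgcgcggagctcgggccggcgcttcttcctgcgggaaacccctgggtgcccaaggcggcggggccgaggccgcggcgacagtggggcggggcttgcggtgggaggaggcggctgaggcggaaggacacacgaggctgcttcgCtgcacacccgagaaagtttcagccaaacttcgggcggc

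RefSeq promoter windows, 250 bases before to 50 bases after the start, were matched for 8 of the 10 genes, and DLL1 and DLL3 are named only. The window of MIB1, chr18:21740542-21740841, lies at a RefSeq start inside the gene span that GENCODE 29 gives, downstream of the start of that span. The core TGGGAA bound by RBPJ, searched on both strands, occurred in 0 of these 8 windows and in 8439 of 35116 promoter windows of the same length (24.0%). The 8 windows held 59.0% to 79.7% GC, against a median of 58.7% over all windows, so nothing is read from that difference.

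The other receptors did not pass the test. NOTCH3 (ENSG00000074181, chr19:15159038-15200981, minus strand), a receptor of vascular smooth muscle and pericytes, was at 85.4, 74.1 and 86.9 CPM in shGXYLT2, against 72.1, 75.1 and 73.9 CPM in shControl. The shControl libraries lay close together, and shGXYLT2 replicate 2 lay among them while the other 2 shGXYLT2 libraries lay higher. The log2 fold change of NOTCH3 was 0.16 ± 0.069 (SE; 95% interval 0.01 to 0.30; edgeR adjusted p = 0.156). It passed without shGXYLT2 replicate 2 (log2 fold change 0.22; edgeR adjusted p = 0.0302), where 4.08% of tested genes rose. It also passed in the fit corrected for GC content and length (0.26; edgeR adjusted p = 0.00018), where 9.31% of tested genes rose. The transcripts of NOTCH3 and NOTCH1 hold 63.1% and 62.9% GC, while NOTCH2 holds 49.4% and MIB1 37.7%.

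NOTCH1 (ENSG00000148400, chr9:136494433-136545786, minus strand), the receptor mutated in T cell leukaemia, was at 44.0, 37.7 and 44.4 CPM in shGXYLT2, against 40.4, 41.1 and 42.8 CPM in shControl. The groups overlapped, with replicate 2 the lowest of the shGXYLT2 libraries again. Its log2 fold change was 0.02 ± 0.077 (SE; 95% interval -0.14 to 0.18; edgeR adjusted p = 0.913).

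NOTCH4 (ENSG00000204301, chr6:32194843-32224067, minus strand), known mainly from endothelium, had 5, 13 and 12 counts in shGXYLT2, against 2, 4 and 7 counts in shControl. The groups overlapped at these low counts. Without the filter on low counts its log2 fold change was 0.90 (edgeR adjusted p = 0.534), and the neighbouring GPSM3 shares 50 of its 6696 words. The endothelial markers PECAM1, CDH5, KDR and ROBO4 were at 0 in every library, and the 6 endothelial markers summed to 0.489 to 0.879 CPM in shGXYLT2 and 0.704 to 1.11 CPM in shControl.

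The ligands held 0 calls among 3 tested with edgeR, 0 with an unadjusted p under 0.05 and 0 with DESeq2. JAG1 (ENSG00000101384, chr20:10637684-10673999, minus strand), the ligand lost in Alagille syndrome, was at 23.7, 21.9 and 23.2 CPM in shGXYLT2, against 20.2, 21.0 and 21.4 CPM in shControl. Its groups did not overlap, though by a narrow gap. The log2 fold change was 0.14 ± 0.083 (SE; 95% interval -0.04 to 0.31; edgeR adjusted p = 0.331). JAG2 (ENSG00000184916, chr14:105140981-105168824, minus strand) was at 134, 118 and 139 CPM in shGXYLT2, against 139, 134 and 138 CPM in shControl. Its groups overlapped, with shGXYLT2 replicate 2 the lowest library. The log2 fold change was -0.07 ± 0.065 (SE; 95% interval -0.21 to 0.07; edgeR adjusted p = 0.56). Of its words, 421 (7.28%) are also in AL512356.1, a transcript with a mean of 1.76 counts.

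DLL1 (ENSG00000198719, chr6:170282206-170306565, minus strand), a Delta ligand of embryonic somites and gut progenitors, was at 2.04, 1.63 and 2.25 CPM in shGXYLT2, against 2.30, 1.70 and 1.94 CPM in shControl. The groups overlapped, and 29 to 51 counts per library leave a wide interval. The log2 fold change was -0.01 ± 0.23 (SE; 95% interval -0.48 to 0.47; edgeR adjusted p = 0.988). FAM120B, on the opposite strand and overlapping DLL1, had a mean of 481 counts, and use of strand in counting is not given in the sources used here.

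DLL4 (ENSG00000128917, chr15:40929333-40939073, plus strand), the endothelial Delta ligand, had 4, 7 and 12 counts in shGXYLT2, against 11, 4 and 9 counts in shControl. The sums were 23 and 24 counts, and without the filter the log2 fold change was -0.36 (edgeR adjusted p = 0.771). DLL3 (ENSG00000090932, chr19:39498895-39508481, plus strand), a Delta ligand that inhibits signalling and stays inside the cell, had 1, 2 and 1 counts in shGXYLT2, against 1, 0 and 0 counts in shControl. All 6 libraries were under 3 counts, so no fold is given.

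**Figure D3:**
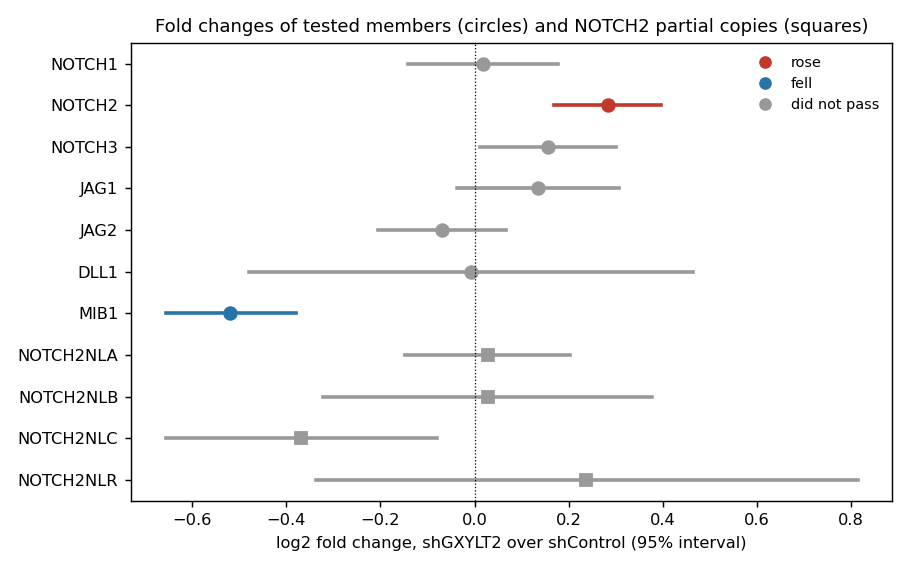
log2 fold change of shGXYLT2 over shControl with its 95% interval for the 7 tested genes (circles) and 4 tested NOTCH2 partial copies (squares), colored by whether they rose, fell or did not pass an edgeR adjusted p of 0.05. NOTCH2 is the only riser at 0.28 and MIB1 the only faller at -0.52.

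MIB1 (ENSG00000101752, chr18:21704957-21870957, plus strand, GRCh38) encodes Mind bomb 1, the ligase whose ubiquitination of ligands starts their endocytosis. It was at 108, 117 and 99.2 CPM in the shGXYLT2 libraries, against 157, 147 and 160 CPM in the shControl libraries. All 3 shGXYLT2 libraries lay below all 3 shControl libraries. The means were 108 ± 8.86 CPM in shGXYLT2 and 155 ± 6.52 CPM in shControl (SD, n = 3 each). MIB1 fell 1.43-fold, a log2 fold change of -0.52 ± 0.066 (SE; 95% interval -0.66 to -0.38; edgeR adjusted p = 2.8e-05). Of all tested genes, 4.7% had a lower log2 fold change. It passed under all 16 alternatives, with log2 fold changes between -0.58 and -0.46. MIB2, its relative on the same ligands, averaged 7.24 ± 1.46 CPM in shGXYLT2 and 8.38 ± 0.463 CPM in shControl and did not pass (log2 fold change -0.21, 95% interval -0.51 to 0.09; edgeR adjusted p = 0.378).

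The 3′ untranslated region of MIB1 also holds a short word that was frequent among the genes that fell. The 7-base word GACTCAT was chosen earlier from these same fold changes, so its frequency among fallen genes is no independent evidence. It occurred in the longest 3′ untranslated region of 246 of 970 fallen genes (25.4%), of 39 of 758 risen genes (5.14%) and of 1033 of 12373 tested genes (8.35%). Of the 10 genes, MIB1 alone held it, in 2 copies, and NOTCH2 and the rest held 0. GXYLT1, which also fell, held 2 copies, and the 3′ untranslated region of GXYLT2 itself held 0. A first copy in each gene is shown with its flanks, the word in capitals, on GRCh38.
MIB1, chr18:21866581-21866609, plus strand: agcacctggctGACTCATgcagagtttgg
GXYLT1, chr12:42087482-42087510, minus strand: agacttctgttGACTCATactctcaagag
MIB1 has the longest of the 10 regions, with 6291 bases, and a longer region has more room for any word. What the word does in these cells was not tested.

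Ratios between 2 genes of a library do not depend on library scaling, and 4 were computed from counts plus 0.5. The smallest p that 3 against 3 libraries allow is 0.1. NOTCH2 to NOTCH1 was 5.40, 6.42 and 5.55 in shGXYLT2, against 4.86, 4.86 and 4.68 in shControl. The groups did not overlap, with a log2 difference of 0.27 (exact two-sided permutation p = 0.1; 0.133 after Benjamini-Hochberg adjustment over 4). NOTCH2 to NOTCH2NLA, a ratio added after seeing the data, was 9.85, 10.3 and 9.52 in shGXYLT2, against 8.44, 8.76 and 7.79 in shControl. It too did not overlap, with a log2 difference of 0.25 (exact two-sided permutation p = 0.1, adjusted 0.133). JAG1 to JAG2 was 0.178, 0.185 and 0.167 in shGXYLT2, against 0.146, 0.158 and 0.155 in shControl, also without overlap (log2 difference 0.21; exact two-sided permutation p = 0.1, adjusted 0.133). MIB1 to MIB2 was 12.7, 20.7 and 12.9 in shGXYLT2, against 18.01, 18.7 and 18.5 in shControl. Here shGXYLT2 replicate 2 lay above every shControl library and the other 2 below them, with a log2 difference of -0.29 (exact two-sided permutation p = 0.4, adjusted 0.4). Without shGXYLT2 replicate 2 the difference was -0.52, and without replicate 1 or 3 of that group it was -0.17 or -0.18.

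The genes whose log2 CPM over the 6 libraries was most like that of NOTCH2 were PARM1 (Pearson r = 0.999), CHODL (0.994) and MAGED2 (0.994), out of 9858 genes searched. For MIB1 they were RNF113A (0.998), LRP8 (0.997) and TRIP12 (0.995). A correlation does not measure the size of a change. The log2 fold changes were 0.60 for PARM1, 2.01 for CHODL and 0.30 for MAGED2. They were -0.18 for RNF113A, -0.49 for LRP8 and -0.40 for TRIP12, and RNF113A did not pass (edgeR adjusted p = 0.261). With 6 libraries in 2 groups, 561 genes (5.69%) had r over 0.9 with NOTCH2 and 655 (6.65%) with MIB1, so these names are a description.

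**Figure D4:**
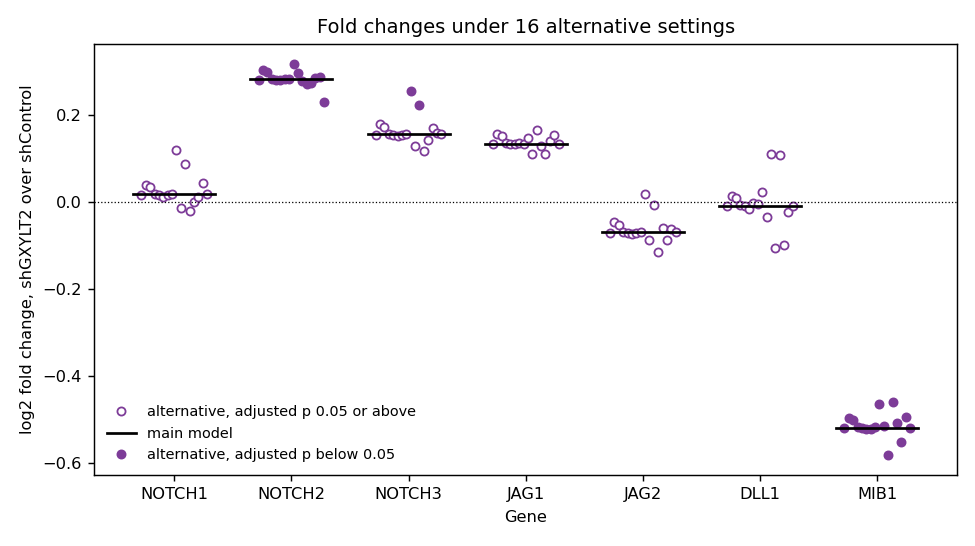
log2 fold change of shGXYLT2 over shControl for the 7 tested genes under 16 alternative settings each (points, filled where the adjusted p was below 0.05) and as reported (line). All 16 points are filled for NOTCH2 and MIB1, and 2 for NOTCH3.

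The other genes of the pathway were read from 8 lists, the NOTCH2 copies among them, which together held 74 tested genes. Of these 15 (20.3%) were called, 7 risen and 8 fallen, while 12.2% of all tested genes were called, 5.31% risen and 6.84% fallen. The counts of each list are to be read against those shares, and nothing particular to a list is read from them. The lists were chosen with earlier results of these data known, and GXYLT2, the target, and GXYLT1 are among the fallen.

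Beside MIB1, the list of ligand ubiquitination and endocytosis had 1 riser and 1 faller among 8 tested genes, with a median log2 fold change of -0.07. NEURL1B, another ligase of ligands, averaged 87.0 ± 4.73 CPM in shGXYLT2 and 69.2 ± 2.92 CPM in shControl, and rose (log2 fold change 0.33; edgeR adjusted p = 0.0023). DNM1, a dynamin known mainly from neurons, averaged 49.8 ± 1.25 CPM in shGXYLT2 and 61.7 ± 1.04 CPM in shControl, and fell by 0.31 (edgeR adjusted p = 0.0033). Epsins EPN1 and EPN2, adaptors of ligand endocytosis, had log2 fold changes of -0.03 and -0.003 and did not pass.

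Of 9 tested genes of receptor cleavage, 2 rose and 0 fell, while 3 had an unadjusted p under 0.05 and DESeq2 also called 2 risen and 0 fallen (median log2 fold change 0.02). The risers were subunits of gamma-secretase. NCSTN averaged 91.7 ± 3.51 CPM in shGXYLT2 and 78.3 ± 1.72 CPM in shControl (log2 fold change 0.23; edgeR adjusted p = 0.0197), and PSENEN averaged 28.6 ± 2.90 CPM in shGXYLT2 and 23.3 ± 1.56 CPM in shControl (0.30; edgeR adjusted p = 0.0368). Both calls were lost without any 1 of the 3 shControl libraries (highest edgeR adjusted p = 0.11 for NCSTN and 0.204 for PSENEN). NCSTN was also lost without shGXYLT2 replicate 1 (edgeR adjusted p = 0.059). PSENEN was lost without shGXYLT2 replicate 2 or 3 (edgeR adjusted p = 0.0808 and 0.0759). PSENEN did not pass with limma-voom (adjusted p = 0.0524). The proteases that make the first cut did not pass, with log2 fold changes of -0.03 for ADAM10 and 0.19 for ADAM17.

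Receptor turnover had 2 risers and 1 faller among 10 tested genes, with a median of -0.10. NUMB, an endocytic inhibitor of Notch, averaged 60.5 ± 1.65 CPM in shGXYLT2 and 49.8 ± 2.10 CPM in shControl (log2 fold change 0.28; edgeR adjusted p = 0.008). DTX3L, a Deltex family ligase, averaged 17.4 ± 1.03 CPM in shGXYLT2 and 13.7 ± 0.883 CPM in shControl (0.35; edgeR adjusted p = 0.021). NEDD4, a ubiquitin ligase, averaged 46.7 ± 6.21 CPM in shGXYLT2 and 59.3 ± 2.31 CPM in shControl, and fell (log2 fold change -0.35; edgeR adjusted p = 0.0098). The call on NUMB was lost without shControl replicate 1 or 3 (highest edgeR adjusted p = 0.0756), and that on NEDD4 without shControl replicate 3 (edgeR adjusted p = 0.0745). DTX3L passed with 1 library left out only where that was shGXYLT2 replicate 3 or shControl replicate 2 (highest edgeR adjusted p otherwise 0.128). The 10 tested enzymes of EGF repeat glycosylation held 2 fallen, GXYLT2 and GXYLT1, and 0 risen, with DESeq2 also calling 0 risen.

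The nuclear complex, from RBPJ to its coactivators and corepressors, had 0 of 14 calls with edgeR, while 1 gene had an unadjusted p under 0.05 and DESeq2 called 1, CREBBP, as fallen. CREBBP, a histone acetyltransferase named here after its values were seen, had a log2 fold change of -0.18 (edgeR adjusted p = 0.0587). The 2 members with the highest CPM, not scaled by length, did not pass. SNW1 averaged 194 ± 8.72 CPM in shGXYLT2 and 183 ± 5.76 CPM in shControl, and NCOR1 averaged 162 ± 10.4 CPM in shGXYLT2 and 160.0 ± 8.01 CPM in shControl.

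Of 14 tested genes listed as Notch targets, 1 rose and 2 fell, with a median of -0.04. An unadjusted p under 0.05 was found for 6 of them, and DESeq2 called 0 risen and 2 fallen. Whether Notch drives each listed gene in these cells was not tested. BMP2 averaged 7.96 ± 0.962 CPM in shGXYLT2 and 5.75 ± 0.344 CPM in shControl (log2 fold change 0.47; edgeR adjusted p = 0.0274). MYC, a growth regulator, averaged 212 ± 20.8 CPM in shGXYLT2 and 268 ± 8.41 CPM in shControl (-0.34; edgeR adjusted p = 0.0023). HES6, a family member that counters HES1, averaged 3.91 ± 0.604 CPM in shGXYLT2 and 5.88 ± 0.719 CPM in shControl (-0.58; edgeR adjusted p = 0.0231). With 1 library left out, BMP2 passed only without shGXYLT2 replicate 2 (highest edgeR adjusted p otherwise 0.119), and HES6 only without replicate 3 of either group (0.113). BMP2 did not pass with DESeq2 either (adjusted p = 0.0575). With the GC content and length offset 6 of the listed genes passed, 3 risen and 3 fallen. That fit called 3100 of 15108 tested genes, more than the main fit did. Upper-quartile factors or no filter gave 4 calls in the list, 2 risen and 2 fallen. Leaving out shGXYLT2 replicate 1, shControl replicate 1 or shControl replicate 2 gave 1 call, fallen. The classical targets HES1 (log2 fold change 0.03, 95% interval -0.32 to 0.38), HEY1 (0.32, 0.09 to 0.54) and NRARP (-0.17, -0.40 to 0.07) did not pass. The interval of HEY1, which is not adjusted for the number of genes tested, lay above 0. GATA3 (-0.94, -1.61 to -0.27) and CCND1 (0.14, 0.03 to 0.26), named after their values were seen, did not pass either.

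The non-canonical ligands, proteins outside the Delta and Jagged families, had 1 riser and 2 fallers among 5 tested and a median of -0.22. CNTN1, a neural adhesion molecule, was at 232, 237 and 189 CPM in shGXYLT2, against 96.3, 103 and 105 CPM in shControl. It rose 2.16-fold (log2 fold change 1.11 ± 0.077, SE; edgeR adjusted p = 1.4e-08), and the groups did not overlap. CCN3, a secreted matricellular protein, averaged 42.0 ± 1.39 CPM in shGXYLT2 and 82.0 ± 4.17 CPM in shControl (-0.96; edgeR adjusted p = 8.9e-09). MFAP5, a microfibril protein, averaged 1.34 ± 0.255 CPM in shGXYLT2 and 3.10 ± 0.506 CPM in shControl (-1.19; edgeR adjusted p = 0.0014).

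**Figure D5:**
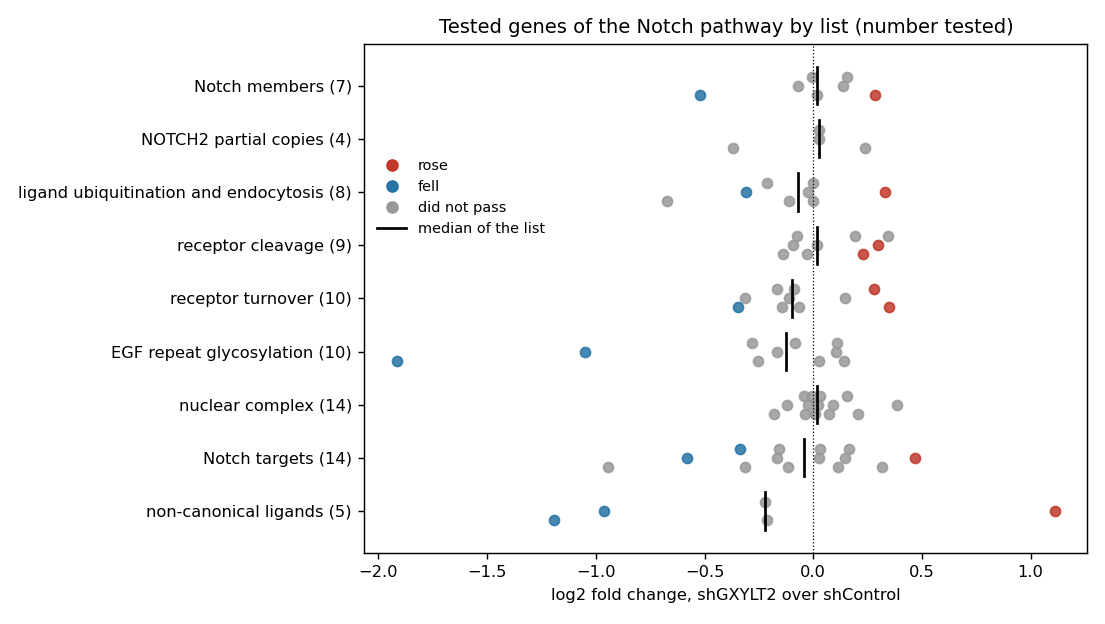
log2 fold change of shGXYLT2 over shControl for the tested members (top row) and for each pathway list with its number tested, 1 point per gene, with the list's median as a vertical bar. All points are grey in the NOTCH2 partial copies and the nuclear complex, and CNTN1 lies farthest right at 1.11.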

How the data were processed

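Libraries were prepared with a stranded mRNA kit, per the labels' protocols. The submitters' processing notes name the tools HISAT2, StringTie and fastp and the build GRCh38.p13. For the counting step, neither tool nor strand setting is given in the sources used here. Deposited by the authors were estimated counts per gene, with 12.3% of values not whole, and gene lengths in bases, whose definition is not given. Columns were matched to samples by the labels' descriptions.

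Counts were rounded and tested with edgeR 4.0.16 (R 4.3.3; TMM factors, filterByExpr, quasi-likelihood test, two-sided) over 15693 genes, 3 shGXYLT2 against 3 shControl libraries, with Benjamini-Hochberg adjustment over all of them and a threshold of 0.05. Totals of 17291138 to 24898425 counts set the precision of low genes, and 31562 genes were at 0 in all libraries. The scripts were tested on simulated data. Alternatives used DESeq2 1.42.0 and limma 3.58.1 (voom), other scaling, filters and offsets, a replicate block and each library left out. CPM, counts per TMM-scaled total of the tested genes, were computed from them. Of the gene IDs, 58225 (92.9%) matched GENCODE 29, which gave positions, coding sequences and 3′ untranslated regions on GRCh38. Promoters came from RefSeq on GRCh38.p14. Ratios used exact permutation tests over libraries.

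Besides the 10 genes, the text names GXYLT2, the tested NOTCH2 copies, up to 3 risen and 3 fallen genes by adjusted p in each pathway or marker list (the 2 tested genes with the highest CPM where none passed), and the 3 genes most correlated with NOTCH2 and with MIB1 (mean log2 CPM of at least 3). GXYLT1 and MIB2 are list members given beside GXYLT2 and MIB1, and a few further list members were named after their values were seen. One leukocyte marker is not reported here. The genes and lists were chosen with earlier results of these data known.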

Additional observations from a re-analysis of the deposited data

How the results depend on the processing

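NOTCH2 and MIB1 kept direction and call under all 16 alternatives, with adjusted p at most 0.0259 and 0.001. The count of genes changed, 1907 as reported, was 3100 with a GC content and length offset (GC from GENCODE transcripts) and 960 to 2347 with 1 library left out, with 990, 1152 and 960 without shControl replicates 1, 2 and 3. The 15 pathway calls ranged from 9 to 17 with 1 library left out, with 9 without shControl replicate 1 or 3. Signs turned only for genes that did not pass as reported: JAG2 was 0.018 with the GC content and length offset, and DLL1 was 0.015 with upper-quartile factors, 0.010 with no filter and 0.024 with that offset. With 1 library left out, log2 fold changes ran from -0.02 to 0.088 for NOTCH1, -0.105 to 0.111 for DLL1, -0.011 to 0.088 for NOTCH2NLA, -0.202 to 0.144 for NOTCH2NLB and -0.011 to 0.075 for NCOR1. The cause was not tested. The markers CDH1 (log2 fold change -0.32), KRT8 (0.19) and TEK (-0.59) did not pass as reported.

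Replicate numbers were taken from the sample titles. Deviations of same-numbered libraries correlated at -0.02, -0.21 and -0.26 over 10021 genes, and those of differently numbered libraries at up to 0.248. The deviations were taken from the mean of each group, so these correlations are tied to each other. They cannot decide whether libraries were prepared in pairs. The column names of replicate 2 carry different numbers in shGXYLT2 and shControl. With a replicate block, 1471 genes changed and NOTCH2 had a log2 fold change of 0.28 (edgeR adjusted p = 0.0089). The block left MIB1 called, and receptor cleavage had 0 calls under it. Counts of 29 to 51 per library limit DLL1, and those of NOTCH4, DLL3 and DLL4 allow no firm statement.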
